A study of Mus musculus with 12 samples.

Results

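Cluster 4 of the authors' deposited cell table is a set of late pachytene germ cells from mouse testis, found almost entirely in Zfp541 knockout animals. Its members are the cells annotated late pachytene that carry k-means cluster number 4, and 222 of the 929 kept cells met that rule. Zfp541-KO libraries of 360 h held 220 of them, 77 of 77 kept cells (100%) in library 1, 66 of 80 (82.5%) in library 2 and 77 of 89 (86.5%) in library 3. The other 2 cells came from wild-type 260 h library 1. Wild-type 360 h libraries held 0 cluster 4 cells among 272 kept cells, and 267 of these (98.2%) were in cluster 5, the other late pachytene cluster.

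The study compared wild type (WT) with Zfp541-KO on the C57BL/6 strain, in testes whose germ cells had been brought into step. Pups of 2 days were fed WIN 18,446, an inhibitor of retinoic acid synthesis, for 7 days, and all 4 groups then received an injection of retinoic acid (RA) on day 8. Testes were taken 260 h later for early pachytene or 360 h later for late pachytene, with 3 libraries in each of the groups WT 260 h, Zfp541-KO 260 h, WT 360 h and Zfp541-KO 360 h. Cells were picked singly by mouth pipette into a modified Smart-seq2 protocol, in which unique molecular identifiers (UMIs) count cDNA molecules and only RNA 3′ ends are sequenced. The deleted part of Zfp541 and the origin of the libraries in separate animals are not given in the labels, so p-values measure the spread between libraries, which may be technical.

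In meiotic prophase, the topoisomerase-like enzyme SPO11 cuts chromosomes at hotspots marked by the methyltransferase PRDM9 in leptotene, the strand exchange protein DMC1 helps to search for the homologous chromosome in zygotene, and the synaptonemal complex holds homologues together in pachytene, when some breaks become crossovers. During pachytene a further programme starts, in which spermatocytes transcribe genes for sperm metabolism, the flagellum and the acrosome that are used after the divisions. ZFP541 is a zinc finger protein of pachytene spermatocytes that acts with KCTD19 and the histone deacetylases HDAC1 and HDAC2.

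The 12 libraries held 3601518 to 27202665 gene UMIs in kept cells, and the Zfp541-KO 360 h libraries 8640883, 9527730 and 10689318. A cluster 4 cell held 57160 to 350813 gene UMIs, with a median of 106760, against medians of 105596 in cluster 3 and 176298 in cluster 5. Cluster 3 is an early pachytene cluster of 214 cells, 59, 50 and 32 from the Zfp541-KO 260 h libraries, 72 from WT 260 h library 3 and 1 from WT 260 h library 2. The other WT 260 h early pachytene cells were in cluster 2, which also held 7 Zfp541-KO 360 h cells. The 3 WT 260 h libraries thus differ among themselves, and counts against that group are given with library 3 alone as well. All 96 cell barcodes occur in every library as plate indexes and do not mark shared cells. Zfp541 itself was read at 143, 142 and 162 CPM in cluster 4 and 168, 128 and 141 CPM in cluster 5, which with 3′ reads does not check the genotype. CPM is UMIs of a gene per 1e6 gene UMIs summed over the cells of a cluster in a library. CPM values are given in library order and are not compared between genes.

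The 6 genes proposed as markers of cluster 4 were above their cluster 5 levels in all 3 libraries. Since the cells were clustered on their expression, cluster levels are a description, and tests were run only between labelled groups, on UMIs summed over all kept cells of each library. Acot13, an acyl-CoA thioesterase (mm10 chr13:24817948-24831540, ENSMUSG00000006717.7), was at 414, 393 and 375 CPM in cluster 4, 5.13, 3.92 and 4.32 in cluster 5, 81.8, 66.5 and 64.4 in the Zfp541-KO libraries of cluster 3 and 13.1 in the WT library of cluster 3. Every cluster 4 value lies above every value of the other clusters. Six5, a homeodomain transcription factor (chr7:19094594-19098549, ENSMUSG00000040841.5), was at 163, 177 and 171 CPM, against 0.757 to 3.57 in cluster 5, 46.9 to 103 in Zfp541-KO cluster 3 and 3.77 in WT cluster 3. Prdm9 (chr17:15543079-15564354, ENSMUSG00000051977.16) was at 50.1, 74.5 and 56.5 CPM, against 2.48 to 4.04, 4.62 to 18.0 and 3.22. These 3 genes were thus higher in cluster 4 than in either neighbour, and Acot13 and Six5 were at higher levels in the cluster 3 cells of knockout libraries than in those of WT library 3. Pre-meiotic cells of Zfp541-KO 360 h libraries 2 and 3 also held them, Acot13 at 239 and 240 CPM and Six5 at 89.5 and 127 CPM. In pre-meiotic cells of the 260 h libraries Acot13 was at 56.9 to 149 CPM and Six5 at 5.42 to 39.8 CPM.

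Zcwpw1, whose protein reads the histone marks PRDM9 makes (chr5:137787798-137822621, ENSMUSG00000037108.13), was at 305, 456 and 435 CPM in cluster 4 and 17.4 to 28.9 in cluster 5. Its range in Zfp541-KO cluster 3, 295 to 384, overlaps that of cluster 4, while WT cluster 3 was at 43.9. It shares 636 exon bases with Pilra on the other strand, and the labels do not say whether reads were counted by strand. Atp2b1, a plasma membrane calcium pump (chr10:98914406-99026143, ENSMUSG00000019943.10), was at 119, 144 and 113 CPM, against 2.84 to 3.88 in cluster 5, 98.4 to 112 in Zfp541-KO cluster 3 and 10.1 in WT cluster 3. Tcf12, an E protein transcription factor (chr9:71842688-72111871, ENSMUSG00000032228.16), was at 94.1, 106 and 99.9 CPM, 2.54 to 3.88 in cluster 5, 81.5 to 104 in Zfp541-KO cluster 3 and 55.2 in WT cluster 3. All 3 genes were far above their cluster 5 levels, while Zcwpw1 and Tcf12 overlap Zfp541-KO cluster 3 and Atp2b1 lies next to it. Pre-meiotic cells held as much Tcf12, at 98.3 to 159 CPM by library. Their Atp2b1 was at 145 to 185 CPM in the 260 h libraries and at 108 and 106 CPM in Zfp541-KO 360 h libraries 2 and 3.

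**Figure D1:**
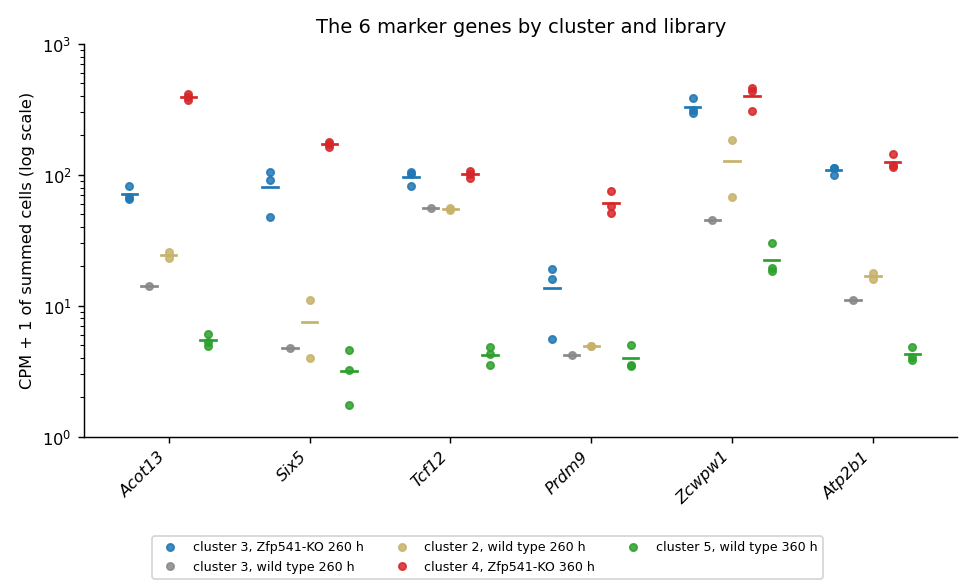
Levels of the 6 proposed cluster 4 markers (CPM + 1, log axis), 1 dot per library with at least 10 cells of the cluster and a line at the mean, for cluster 3 (Zfp541-KO and WT 260 h), cluster 2 (WT 260 h), cluster 4 (Zfp541-KO 360 h) and cluster 5 (WT 360 h). Acot13, Six5 and Prdm9 are highest in cluster 4 among these, while Tcf12, Zcwpw1 and Atp2b1 lie at like levels in cluster 4 and Zfp541-KO cluster 3 cells. Pre-meiotic cluster 1 is not shown.

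Across all kept cells, all 6 were higher in Zfp541-KO 360 h than in WT 360 h by edgeR's quasi-likelihood test (8.93% of the 20279 genes tested were called higher, at an adjusted p under 0.05). Cluster 4 made up 89.4% of kept cells in Zfp541-KO 360 h, and cluster 5 made up 98.2% in WT 360 h. For genes proposed as cluster 4 markers, the comparison thus largely repeats that between the clusters and is no independent support. The log2 difference ± SE was 5.80 ± 0.39, adjusted p = 5.01e-07 for Acot13, 5.68 ± 0.56, adjusted p = 6.32e-06 for Six5 and 3.92 ± 0.52, adjusted p = 7.97e-05 for Prdm9. It was 4.45 ± 0.35, adjusted p = 1.44e-06 for Atp2b1, 4.25 ± 0.27, adjusted p = 4.39e-07 for Tcf12 and 3.72 ± 0.48, adjusted p = 7.66e-05 for Zcwpw1. Relative to WT 260 h, 5 of the 6 were called higher (background 8.88%), by 4.95 for Six5, 3.52 for Prdm9, 3.45 for Acot13, 1.89 for Zcwpw1 and 1.53 for Atp2b1. Tcf12 was not (log2 difference 0.72 ± 0.24, adjusted p = 0.051), and the Zcwpw1 call was lost without WT 260 h library 2. Against Zfp541-KO 260 h, Acot13 (2.44 ± 0.33, adjusted p = 0.000127), Prdm9 (2.29 ± 0.48, adjusted p = 0.00332) and Six5 (1.64 ± 0.46, adjusted p = 0.0184) were called higher (background 13.3%), the Six5 call being lost without Zfp541-KO 260 h library 2 or 3 or Zfp541-KO 360 h library 1. In summed cells, fewer cells of a type and less RNA per cell cannot be told apart. Pre-meiotic cells were 24.9% of kept cells in WT 260 h, 30.2% in Zfp541-KO 260 h and 7.72% in Zfp541-KO 360 h. The WT 360 h libraries held 2, 2 and 1 of them. Calls between the times thus compare sums with unequal shares of pre-meiotic cells.

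The markers were also present cell by cell. After each cell was thinned to 40000 gene UMIs, so that 1 UMI is 25 CPM, Acot13 was detected in 222 of 222 cluster 4 cells (median 16 UMIs), Zcwpw1 in 100% (median 16), Six5 in 98.6%, Atp2b1 in 98.6%, Tcf12 in 95.5% and Prdm9 in 83.8%. The corresponding shares in cluster 5 were 15.3% for Acot13, 48.5% for Zcwpw1, 5.60% for Six5, 9.70% for Atp2b1, 13.1% for Tcf12 and 10.1% for Prdm9. In cluster 3 they were 89.7% for Tcf12, 86.0% for Zcwpw1, 68.7% for Atp2b1, 66.8% for Acot13, 60.7% for Six5 and 17.3% for Prdm9. Detection of a single marker other than Prdm9 was thus common in cluster 3 cells as well. Prdm9 was sparse even in cluster 4, at a median of 2 and at most 9 UMIs per thinned cell. All 6 genes were found together in 175 of 222 cluster 4 cells (78.8%; 75.3%, 87.9% and 76.6% by library), in 21 of 214 cluster 3 cells (9.81%) and in 0 of 268 cluster 5 cells, which by counting error alone allows a share of up to 1.12%. The share was 29 of 137 cells (21.2%) in cluster 1, which is pre-meiotic, and 7 of 88 cells (7.95%) in cluster 2. Within cluster 3 that share was 3.39%, 10% and 40.6% in the Zfp541-KO libraries and 1.39% in WT library 3. Cells annotated late pachytene thus held RNA of Prdm9, a gene of early prophase.

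The promoters of Prdm9 and Zcwpw1 are shown because the genes make and read the same mark and were both high in cluster 4. The 250 bases before each RefSeq start (GRCm38.p6) are printed, at chr17:15564355-15564604 on the minus strand for Prdm9 and chr5:137787081-137787330 on the plus strand for Zcwpw1, with capitals for a match of CNCCTCAG, a motif of promoters bound by the meiotic initiator STRA8, on either strand.
Prdm9: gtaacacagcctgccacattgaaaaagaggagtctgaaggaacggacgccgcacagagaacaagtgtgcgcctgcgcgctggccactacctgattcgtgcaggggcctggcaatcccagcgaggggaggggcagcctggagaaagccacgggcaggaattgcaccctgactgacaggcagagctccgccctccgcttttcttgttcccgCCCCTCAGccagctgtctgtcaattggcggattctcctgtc
Zcwpw1: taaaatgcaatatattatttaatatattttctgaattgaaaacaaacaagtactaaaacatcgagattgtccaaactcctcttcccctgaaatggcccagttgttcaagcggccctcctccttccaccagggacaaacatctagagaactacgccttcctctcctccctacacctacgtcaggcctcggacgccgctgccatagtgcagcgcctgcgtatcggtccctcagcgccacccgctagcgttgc
The Prdm9 window held 1 match and the Zcwpw1 window 0, and 6.42% of the 32851 windows of this length in the table held at least 1. The E-box CACGTG, searched in the same way, was in neither window and in 6.02% of all windows. The windows of Six5, Tcf12 and Atp2b1 held 0, 1 and 0 matches of CNCCTCAG and 0 of CACGTG. A match describes these letters only.

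For the genes that differed between the WT times, the median level in cluster 4 lay between those of the WT 260 h pachytene cells and cluster 5. Of the 20279 genes tested, 4554 (22.5%) differed between Zfp541-KO 360 h and WT 360 h, 1811 higher and 2743 lower (13.5%). In all 3176 (15.7%) differed from WT 260 h, 1800 higher and 1376 lower (6.79%), and 4759 (23.5%) from Zfp541-KO 260 h, 2693 higher and 2066 lower (10.2%). The comparisons share the Zfp541-KO 360 h libraries. Between WT 360 h and WT 260 h 8082 genes (39.9%) differed, 4244 higher and 3838 lower at 360 h. For the 4244 genes, the median log2(CPM + 1) was 3.08 in Zfp541-KO cluster 3, 3.54 in WT 260 h pachytene cells, 4.40 in cluster 4 and 5.52 in cluster 5. For the 3838 genes it was 3.97, 3.79, 2.98 and 1.68 in the same order.

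The middle position was an average over genes at different positions. On a scale for each gene from 0 at WT 260 h pachytene cells to 1 at cluster 5, the late genes had a median of 0.41 with quartiles of 0.058 and 0.82. Cluster 4 was below the early level for 21.0% of them, nearer to the early level for 34.5%, nearer to the late level for 27.4% and beyond it for 17.1%. For the genes lower at 360 h the median was 0.47, with 18.1% above the early level, 35.1% nearer to it, 40.4% nearer to the late level and 6.36% beyond it. The genes were called between the WT libraries whose cells form both ends of this scale. That choice favours a middle place for any other group, so the position is a description and no test. Cluster 5 defines an end of this scale, and its cells were deeper, with a median of 20.1 gene UMIs per spike-in UMI against 11.4 in cluster 4 and 11.2 in cluster 3. Over all kept cells there were 104843 ± 4034 gene UMIs per cell in Zfp541-KO 360 h and 196455 ± 78290 in WT 360 h (SD, n = 3 each; exact two-sided permutation p of 0.10, adjusted 0.20). With spike-in UMIs as library size the median gene moved by -0.52 (log2) in Zfp541-KO 360 h against WT 360 h, and the split became 637 higher and 3091 lower (17.1% of calls higher, 39.8% with TMM scaling). For WT 260 h the median moved by -0.08, with 974 higher and 463 lower, and against Zfp541-KO 260 h by 0.19, with 2084 higher and 483 lower. Higher calls against WT 360 h below are relative to the median gene. Each list count below is to be read beside the shares over all genes tested. These were 8.93% higher and 13.5% lower against WT 360 h, and 8.88% higher and 6.79% lower against WT 260 h.

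Genes of early prophase were in part high and in part low in cluster 4. Among 11 tested genes of break formation and hotspot marking, 6 were called higher and 0 lower than in WT 360 h (background 8.93% and 13.5%), with a median log2 difference of 1.33 beside 0.03 over all genes. Against WT 260 h 5 were called higher and 0 lower, or 3 and 1 with library 3 as the only WT 260 h library. Without WT 260 h library 2 it was 3 higher, and without library 1 there was 1 lower. With spike-in scaling 4 and 3 were called higher. Mei1, needed for break formation, was at 58.3, 55.4 and 61.5 CPM in cluster 4, 1.63, 1.86 and 4.54 in cluster 5, 18.2, 7.23 and 20.2 in Zfp541-KO cluster 3 and 1.19 in WT cluster 3. It was higher than in WT 360 h (log2 difference 3.82 ± 0.63, adjusted p = 0.000466), and than in WT 260 h (log2 difference 3.07 ± 0.61, adjusted p = 0.00392). Ankrd31, which brings the break machinery to the chromosome axis, was at 409, 487 and 452 CPM against 231, 204 and 216 in cluster 5, but its call against WT 360 h (log2 difference 0.70 ± 0.21, adjusted p = 0.0232) was lost when any 1 of the 6 libraries compared was left out, and with spike-in scaling. Spo11 was not called against either WT group, at 98.9, 137 and 128 CPM in cluster 4 and 144, 123 and 133 in cluster 5. Mei4, another break formation gene, was at 4.4 CPM or less in every cluster 4 library.

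Strand invasion genes split. Of 16 tested, 6 were called higher than in WT 360 h and 0 lower, and against WT 260 h 3 higher and 4 lower (0 and 3 with WT 260 h library 3 alone). The latter higher count was 1 without Zfp541-KO 360 h library 1 or 3 and 0 without WT 260 h library 2 or 3, and the lower count 1 without Zfp541-KO 360 h library 1 and 2 without its library 3 or without WT 260 h library 1 or 3. Rad54b, a DNA translocase of recombination, was at 255, 271 and 291 CPM, 28.7 to 43.7 in cluster 5 and 88.1 to 126 in Zfp541-KO cluster 3, and was higher than in WT 360 h (log2 difference 2.61 ± 0.30, adjusted p = 2.48e-05). Mcmdc2, a helicase-like recombination factor, was at 87.7, 127 and 149.5 CPM against 7.46 to 13.6 in cluster 5 (log2 difference 3.17 ± 0.33, adjusted p = 9.35e-06 against WT 360 h), and the break-sensing kinase Atm at 62.3, 109 and 82.6 against 6.53 to 12.1 (log2 difference 2.71 ± 0.45, adjusted p = 0.000489 against WT 360 h). In contrast, the recombinase Dmc1 was at 5.21, 17.3 and 10.9 CPM in cluster 4 beside 180.3, 141 and 134 in Zfp541-KO cluster 3 and 6.06, 1.79 and 1.66 in cluster 5. Mnd1, a DMC1 cofactor, was at 7.64, 12 and 9.19 CPM, beside 277, 341 and 175 and 3.73, 3.23 and 7.68, and was lower than in WT 260 h (log2 difference -2.79 ± 0.43, adjusted p = 0.000842). Both genes were thus lower in cluster 4 than in Zfp541-KO cluster 3. Over all kept cells Dmc1 was higher than in WT 360 h (log2 difference 2.11, 1.13 to 2.52 over the alternatives, adjusted p = 0.0263) and lower than in WT 260 h (-1.96, -2.84 to -1.33 over the alternatives, adjusted p = 0.0427). The sign held throughout, but the former call was lost without WT 360 h library 2 or 3 or Zfp541-KO 360 h library 2 or 3, and the latter call without WT 260 h library 1 or 3 or Zfp541-KO 360 h library 1 or 3. Both Dmc1 calls were also lost with spike-in scaling and with a replicate block. Psmc3ip, the partner of Mnd1 in 1 complex, stood at 554, 522 and 445 CPM in cluster 4 and shares 1536 exon bases with Mlx.

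Crossover genes were higher than in WT 360 h for 8 of 14 tested and lower for 0, and for 3 with spike-in scaling. Hfm1, a crossover helicase, was at 453, 422 and 507 CPM in cluster 4, 68.3, 59.4 and 68.2 in cluster 5, 278, 367 and 272 in Zfp541-KO cluster 3 and 278 in WT cluster 3. The cluster 4 values lie above all of these. Hfm1 was higher than in WT 360 h (log2 difference 2.45 ± 0.27, adjusted p = 1.99e-05), a call kept in all 15 alternatives. Msh5, a subunit of the MutS-gamma clamp, was at 82.5, 80.3 and 79.0 CPM against 11.1, 7.77 and 16.8 in cluster 5 (log2 difference 2.40 ± 0.34, adjusted p = 0.000136 against WT 360 h). Mcm8, a helicase of break repair, was at 3.36, 10.2 and 14.7 CPM beside 49.0, 62.6 and 50.3 in Zfp541-KO cluster 3, and was lower than in WT 260 h (log2 difference -2.13 ± 0.48, adjusted p = 0.00806). Mlh3, of the late crossover nuclease, was at 121, 138 and 140.4 CPM and 136, 127 and 117 in cluster 5 and was not called against either WT group. Against WT 260 h, 5 genes were called higher and 2 lower, but 0 and 2 with library 3 alone, and 0 and 1 with spike-in scaling. The higher count was 1 without WT 260 h library 2 or Zfp541-KO 360 h library 3 and 3 without Zfp541-KO 360 h library 1 or 2, and the lower count was 1 without any of these or without WT 260 h library 3. Against WT 360 h 1 gene was called lower without Zfp541-KO 360 h library 1 or WT 360 h library 3.

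Of 11 tested genes of the synaptonemal complex and the HORMA axis proteins, 6 were called higher than in WT 360 h and 0 lower. With spike-in scaling, 1 was called higher. Syce3, of the central element, was at 1073, 1009 and 1019 CPM in cluster 4 and 263, 284 and 339.6 in cluster 5 (log2 difference 1.46 ± 0.27, adjusted p = 0.00115 against WT 360 h). Sycp1, the transverse filament, was at 527, 979 and 900.0 CPM, below the 1837 to 2581 of Zfp541-KO cluster 3 and above the 233 to 352 of cluster 5, and was higher than in WT 360 h (log2 difference 1.14 ± 0.25, adjusted p = 0.00446). Library 1 had the lowest level of the 3. Syce1, another central element gene, followed the late pattern, at 1088, 988 and 899 CPM, 858, 1058 and 714 in cluster 5 and 309, 396 and 280.1 in Zfp541-KO cluster 3, and was higher than in WT 260 h (log2 difference 1.51 ± 0.31, adjusted p = 0.00501). Sycp2 and Sycp3, of the lateral element, were not called against either WT group.

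Among 11 tested genes of meiotic cohesin and of telomere attachment to the nuclear envelope, 3 were called higher than in WT 360 h (0 with spike-in scaling) and 3 higher than in WT 260 h (3 with library 3 alone), with 0 lower in each (1 against WT 260 h without library 1 of that group). The cohesin subunit gene Smc1b was at 1359, 1601 and 1432 CPM in cluster 4, 355, 486 and 525 in cluster 5 and 689, 753 and 808 in Zfp541-KO cluster 3. It was higher than in WT 260 h (log2 difference 1.39 ± 0.25, adjusted p = 0.00214) and than in WT 360 h (log2 difference 1.31 ± 0.25, adjusted p = 0.00156), the latter call being lost with spike-in scaling. Terb1, which anchors telomeres, was at 194, 169 and 178 CPM, 76.4, 75.4 and 132 in cluster 5 and 49.8, 48.1 and 51.5 in Zfp541-KO cluster 3, and was higher than in WT 260 h (log2 difference 2.36 ± 0.28, adjusted p = 0.000152). Cluster 4 was above both neighbours for Smc1b and Terb1 in all 3 libraries. Stag3, another cohesin subunit, was at 488, 544 and 473 CPM and was not called against either WT group.

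**Figure D2:**
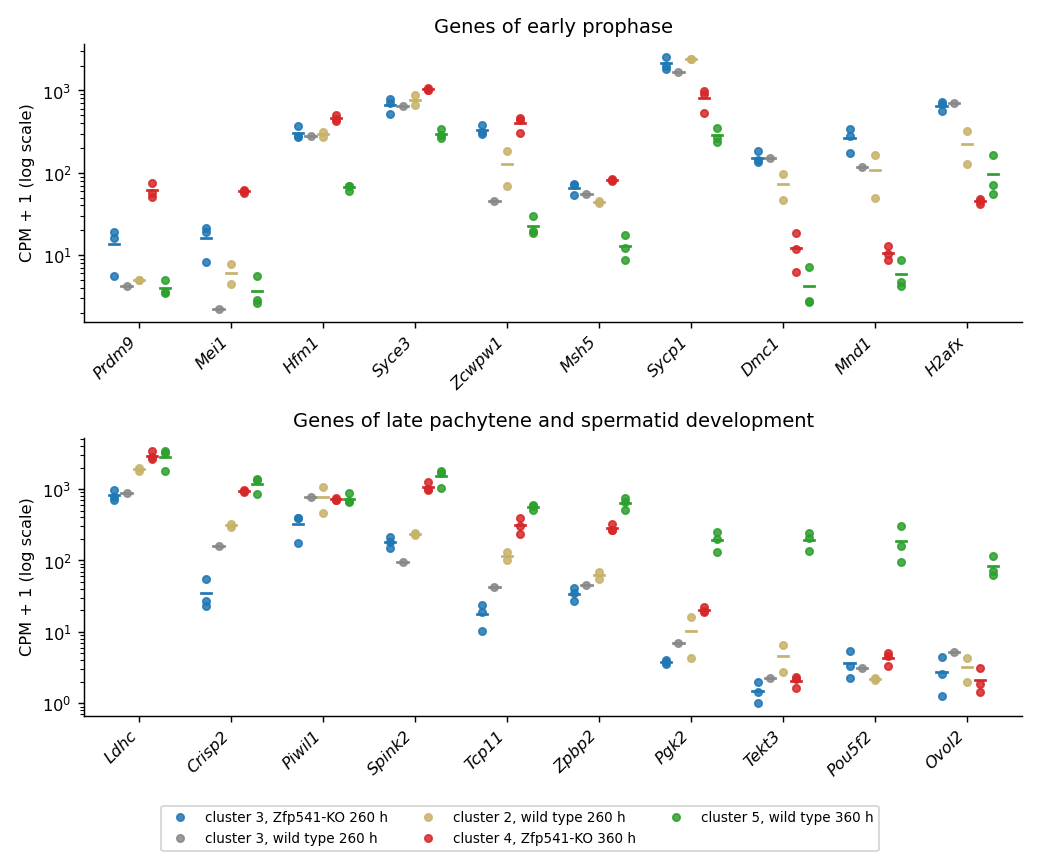
Levels (CPM + 1, log axis) of 10 early prophase genes and 10 late genes, 1 dot per library and a line at the mean, in cluster 3 (Zfp541-KO and WT 260 h), cluster 2 (WT 260 h), cluster 4 (Zfp541-KO 360 h) and cluster 5 (WT 360 h). In cluster 4, Mei1 and Hfm1 are high while Dmc1, Mnd1 and H2afx are low, and Ldhc, Crisp2 and Spink2 are high while Tekt3, Pou5f2 and Ovol2 are low; the genes were picked after their values were seen.

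Genes of meiotic initiation were called higher than in WT 360 h for 6 of 11 tested and lower for 0. Gm4969, known as Meiosin, the partner of STRA8, was at 44.2, 60.6 and 32.5 CPM in cluster 4, 0.699, 0.0688 and 0.849 in cluster 5, 34.6, 59.6 and 18.9 in Zfp541-KO cluster 3 and 0.827 in WT cluster 3 (log2 difference 5.37 ± 0.74, adjusted p = 0.000128 against WT 360 h). Stra8 itself was at 5.67, 75.9 and 85.7 CPM, without a call against either WT group. Its 2 higher libraries are those with kept pre-meiotic cells, 9 in library 2 and 10 in library 3, in which Stra8 was at 1502 and 1319 CPM. The part of those cells in the Stra8 level was not tested. Dazl, an RNA-binding translation regulator, was at 202, 360.0 and 389 CPM, beside 1360.5, 1513 and 1621 in Zfp541-KO cluster 3 and 127, 67.8 and 104 in cluster 5, and was lower than in WT 260 h (log2 difference -1.61 ± 0.29, adjusted p = 0.00221). Spermatogonial markers gave 2 higher and 1 lower calls of 19 against WT 360 h, 9 higher without Zfp541-KO 360 h library 1, and 0 higher and 4 lower against WT 260 h (1 without any of the Zfp541-KO 360 h libraries or WT 260 h library 3, and 2 without WT 260 h library 1). Against WT 360 h these calls were 10.5% higher and 5.26% lower, beside 8.93% and 13.5% of all genes. The summed level of the spermatogonial markers was 572 to 638 CPM in cluster 4, 957 to 1100.2 in cluster 3 and 639 to 744 in cluster 5. The lower call of their member Esx1 against WT 260 h was lost without pre-meiotic cells. The lower calls of Dazl, Cdk1 and H1f0 against WT 260 h were kept without them.

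Genes of DNA replication were called higher than in WT 360 h for 7 of 22 and lower for 1, and for 2 and 0 with spike-in scaling. The higher count was 4 without Zfp541-KO 360 h library 3 or WT 360 h library 2 or 3, and the lower count 0 without any 1 of the 6. Prim1, a primase subunit, was at 67.5, 73.5 and 57.9 CPM in cluster 4, 13.1 to 16.2 in cluster 5 and 8.82 to 17.2 in Zfp541-KO cluster 3 (log2 difference 1.72 ± 0.35, adjusted p = 0.00237 against WT 360 h). The helicase subunit Mcm3 was at 39.7, 63.4 and 63.4 CPM, between 10.6 to 21.8 in cluster 5 and 92.1 to 138 in Zfp541-KO cluster 3. The Prim1 and Mcm3 calls against WT 360 h were lost with spike-in scaling, as were those of Smc1b, Syce3, Sycp1, Dazl, Tex12, Terb2, Meiob, Hormad2, Ccnb1ip1, Mov10l1 and Bax. The Dmc1 and Ankrd31 calls against WT 360 h were lost in the same way.

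Genes of the late programme were reached in part. Of 40 tested sperm tail genes, 26 were called lower and 0 higher than in WT 360 h (18 to 30 lower over the alternatives, 30 with spike-in scaling), with a median log2 difference of -1.48. Against WT 260 h 17 were called higher and 0 lower (8 to 20 higher over the alternatives, 13 with library 3 alone, 8 without Zfp541-KO 360 h library 1, 11 without its library 3 and 9 without WT 260 h library 3), with a median of 0.89 beside -0.07 over all genes. Drc1, of the dynein regulatory complex, was at 249, 197 and 143 CPM in cluster 4, 253, 291 and 234 in cluster 5 and 11.8, 23.5 and 15.9 in Zfp541-KO cluster 3, and was higher than in WT 260 h (log2 difference 2.56 ± 0.39, adjusted p = 0.000875). Hydin, of the central pair, was at 137, 137 and 129 CPM, below the 189.5 to 245 of cluster 5 and above the 17.2 to 27.1 of Zfp541-KO cluster 3. It was lower than in WT 360 h (log2 difference -1.13 ± 0.25, adjusted p = 0.00385) and higher than in WT 260 h (log2 difference 1.56 ± 0.25, adjusted p = 0.00115). Tekt3, a microtubule doublet tektin, was at 1.16, 1.32 and 0.634 CPM in cluster 4 and 206, 239 and 133 in cluster 5 (log2 difference -7.88 ± 1.09, adjusted p = 0.000341 against WT 360 h), and its cluster 4 range overlaps the 0 to 0.977 of Zfp541-KO cluster 3. Dnah10, an inner arm dynein, was at 14.4, 6.97 and 5.81 against 47.0 to 85 (log2 difference -3.21 ± 0.52, adjusted p = 0.000436 against WT 360 h). The list thus ran from genes near the cluster 5 level to genes at the cluster 3 level. Summed over the list, the mean level was 9667 CPM in cluster 4, 4466 in cluster 3 and 14863 in cluster 5. In WT cluster 2 it was 8001 CPM, nearer to cluster 4 than cluster 3 was.

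Of 28 tested genes of the acrosome and spermatid, 15 were called lower and 1 higher than in WT 360 h (10 to 23 lower over the alternatives), and 9 higher and 0 lower than in WT 260 h (5 with library 3 alone, and 5 without Zfp541-KO 360 h library 1 or 3 or WT 260 h library 2 or 3). The 1 higher call was lost without Zfp541-KO 360 h library 2 or WT 360 h library 2. Crisp2, a sperm tail and acrosome protein, was at 908, 927 and 961 CPM in cluster 4, 1376, 1342 and 839.7 in cluster 5, 26.2, 54.0 and 22.3 in Zfp541-KO cluster 3 and 159.7 in WT cluster 3. Its cluster 4 values lie inside the cluster 5 range, and it was higher than in WT 260 h (log2 difference 2.10 ± 0.39, adjusted p = 0.00257). Spink2, an acrosomal protease inhibitor, was at 1258, 997 and 976 CPM beside 1689.6, 1788 and 1038 in cluster 5 and 149.9 to 213 in Zfp541-KO cluster 3 (log2 difference 2.67 ± 0.39, adjusted p = 0.000642 against WT 260 h). Zpbp2, of the acrosome matrix, was intermediate at 322, 263 and 265 CPM, with 503 to 759 in cluster 5 and 25.8 to 39.7 in Zfp541-KO cluster 3. It passed the test both ways, lower than in WT 360 h (log2 difference -1.56 ± 0.36, adjusted p = 0.00511) and higher than in WT 260 h (log2 difference 2.40 ± 0.37, adjusted p = 0.000861). Acrbp, which binds proacrosin, was at 81.4, 85.9 and 89.2 CPM against 369 to 635 in cluster 5 (log2 difference -2.97 ± 0.42, adjusted p = 0.000139 against WT 360 h). Summed over the list, the mean level was 5641 CPM in cluster 4, 3327 in WT cluster 2, 1860 in cluster 3 and 9566 in cluster 5.

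Genes of germ-cell metabolism showed both extremes. Of 16 tested, 9 were called lower and 1 higher than in WT 360 h (5 to 11 lower over the alternatives, 5 without Zfp541-KO 360 h library 3), and 4 higher and 2 lower than in WT 260 h (2 higher without WT 260 h library 3). The germ-cell lactate dehydrogenase Ldhc was at 3388, 2809 and 2659 CPM in cluster 4, 3179.9, 3445 and 1763 in cluster 5 and 973, 765 and 712 in Zfp541-KO cluster 3, and was not called against WT 360 h (adjusted p = 0.577). The retrogene kinase Pgk2 was at 21.4, 18.4 and 18.3 CPM against 202, 248 and 132 in cluster 5 and 2.58 to 3.08 in Zfp541-KO cluster 3 (log2 difference -3.72 ± 0.38, adjusted p = 8.73e-06 against WT 360 h). Hk1, hexokinase 1, was at 2.55, 2.40 and 4.12 CPM against 85.6, 119.8 and 111 in cluster 5, and was lower than in WT 360 h (log2 difference -4.89 ± 0.39, adjusted p = 1.44e-06) and than in WT 260 h (log2 difference -2.33 ± 0.36, adjusted p = 0.000858). Prps1l1, a testis phosphoribosyl pyrophosphate synthetase, was at 7.41, 23.3 and 16.6 CPM against 715, 772 and 483 (log2 difference -5.76 ± 0.60, adjusted p = 1.73e-05 against WT 360 h). Ldhc was thus within the cluster 5 range in the same cells in which Pgk2, Hk1 and Prps1l1 were not. Summed over the list, the mean level was 9963 CPM in cluster 4 and 9673 in WT cluster 2, beside 5432 in cluster 3 and 11344 in cluster 5.

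Of 18 tested pachytene transcription regulators, 3 were called higher and 6 lower than in WT 360 h. The zinc finger gene Ovol2 was at 2.08, 0.841 and 0.423 CPM in cluster 4 and 60.9, 70.3 and 115 in cluster 5 (log2 difference -6.44 ± 0.65, adjusted p = 7.82e-06 against WT 360 h), and the POU gene Pou5f2 was at 2.31, 4.09 and 3.59 and 159, 304 and 93.9 (log2 difference -6.21 ± 0.59, adjusted p = 5.69e-06 against WT 360 h). Tbpl1, a TATA-binding protein relative of germ cells, was at 111, 120.4 and 139 CPM against 316 to 535 in cluster 5 (adjusted p = 0.000149). Of 24 meiotic division genes, 6 were called lower and 1 higher, or 3 lower without Zfp541-KO 360 h library 3 and 0 higher without any 1 of the 6 libraries. Ccna1, the cyclin of the male divisions, was at 3.59, 6.61 and 4.76 CPM against 47.8, 59.0 and 64.2 in cluster 5 (log2 difference -3.90 ± 0.45, adjusted p = 2.46e-05 against WT 360 h), and the meiotic Aurora kinase Aurkc at 3.36, 3.12 and 6.02 against 106, 126 and 58.5 (log2 difference -4.66 ± 0.57, adjusted p = 4.22e-05 against WT 360 h). Hspa2, a chaperone of spermatocytes, was at 1108, 1118 and 1244 CPM beside 1119, 932 and 846 and was not called. Cdk1 was lower than in WT 260 h (log2 difference -2.07 ± 0.33, adjusted p = 0.00117), at 27.5, 46.1 and 49.98 CPM in cluster 4, 67.3 to 80.5 in cluster 5 and 116 to 177 in Zfp541-KO cluster 3.

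**Figure D3:**
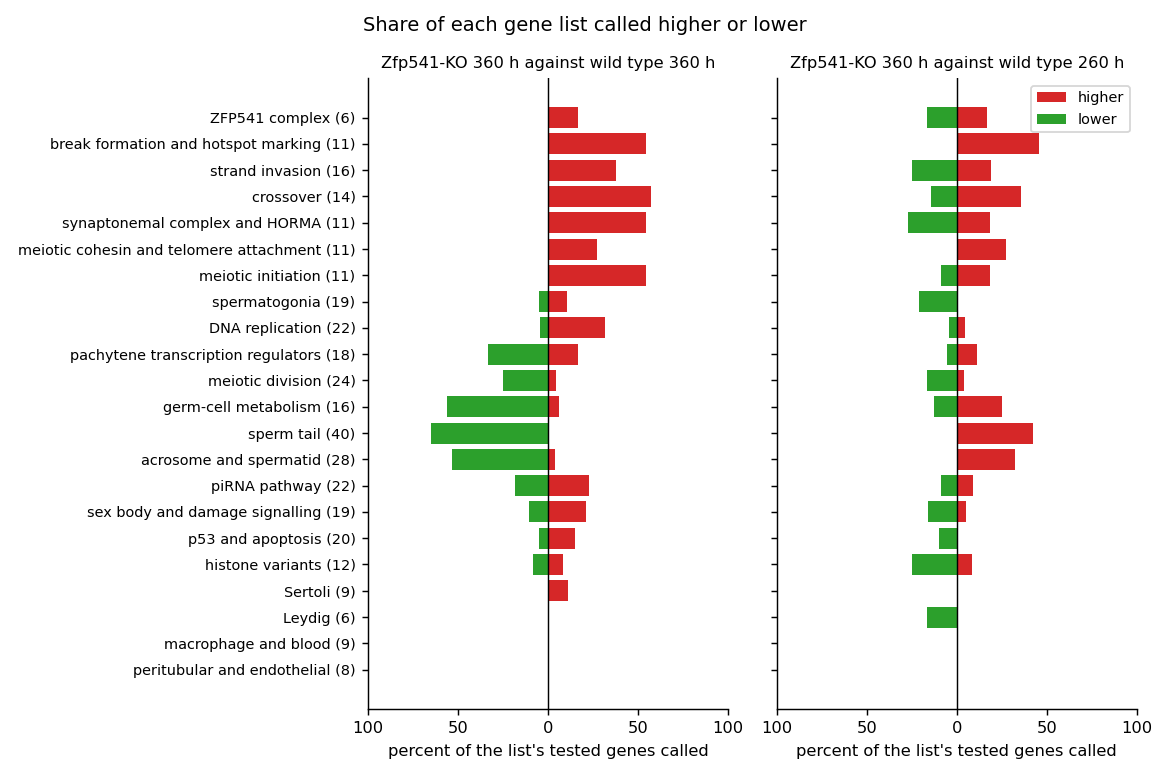
Percent of the tested genes of each list called higher (red, right) or lower (green, left) in Zfp541-KO 360 h against WT 360 h and against WT 260 h (edgeR, adjusted p under 0.05, TMM scaling). The sperm tail and acrosome lists have lower calls against WT 360 h and higher calls against WT 260 h, and the break formation list has 0 lower calls in either.

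The piRNA pathway, which silences transposons in germ cells, was mixed, with 5 of 22 genes called higher and 4 lower than in WT 360 h (1 and 4 with spike-in scaling). These calls were 22.7% and 18.2% of the list, beside 8.93% and 13.5% of all genes. The higher count was 2 or 3 when any 1 of the 6 libraries was left out. Fkbp6, a cochaperone of PIWI loading, was at 389.8, 448 and 424 CPM in cluster 4, 61.5, 64.0 and 72.6 in cluster 5 and 379 to 486 in Zfp541-KO cluster 3 (log2 difference 2.25 ± 0.26, adjusted p = 2.25e-05 against WT 360 h). Tdrd6, a chromatoid body Tudor protein, was at 168, 139 and 131 CPM against 651, 561 and 436 in cluster 5 and 40.5 to 54.6 in Zfp541-KO cluster 3, lower than in WT 360 h (log2 difference -2.27 ± 0.28, adjusted p = 4.86e-05) and higher than in WT 260 h (log2 difference 1.47 ± 0.28, adjusted p = 0.00276). Piwil1, the pachytene PIWI protein, was at 702, 701 and 746 CPM and was called against neither WT group.

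Sex chromosomes are silenced in pachytene, and the list of sex body and damage signalling genes gave 4 higher and 2 lower calls of 19 against WT 360 h (0 and 2 with spike-in scaling). These calls were 21.1% and 10.5% of the list, beside 8.93% and 13.5% of all genes. The higher count was 1 without Zfp541-KO 360 h library 2 or 3 or WT 360 h library 1 or 2 and 2 without WT 360 h library 3, and the lower count was 1 without any Zfp541-KO 360 h library or WT 360 h library 2. X-linked genes took 0.195%, 0.333% and 0.365% of gene UMIs of the cluster 4 cells, 0.179%, 0.135% and 0.208% in cluster 5, and 2.09% in the pooled cluster 1 cells, which are pre-meiotic. Over all kept cells the X-linked share was 0.425% ± 0.200 (SD, n = 3) in Zfp541-KO 360 h and 0.194% ± 0.0322 (SD, n = 3) in WT 360 h, an exact two-sided permutation p of 0.30 (adjusted 0.36 over 6 library measures). Without pre-meiotic cells it was 0.331% ± 0.119 and 0.174% ± 0.0371 (SD, n = 3 each), with a permutation p of 0.20. The smallest p this design allows is 0.10. Rnf168, a ubiquitin ligase of damaged chromatin, was at 30.6, 40.4 and 29.1 CPM against 112, 108 and 118 in cluster 5 (log2 difference -2.05 ± 0.27, adjusted p = 8.21e-05 against WT 360 h). H2afx, the histone variant phosphorylated at breaks and on the sex body, was at 44.0, 47.5 and 40.5 CPM beside 70.5, 54.5 and 164 in cluster 5 and 719.5, 683 and 563 in Zfp541-KO cluster 3, and was lower than in WT 260 h (log2 difference -2.83 ± 0.61, adjusted p = 0.00841). Its level in WT cluster 2 was 128 and 319 CPM.

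Among 20 p53 and apoptosis genes, 3 were called higher and 1 lower than in WT 360 h (background 8.93% and 13.5%; 1 higher with spike-in scaling, and 2 higher without Zfp541-KO 360 h library 2 or 3 or WT 360 h library 3). Apaf1, the apoptosome scaffold, was at 22.1, 26.2 and 28.6 CPM in cluster 4, 1.55, 1.38 and 0.849 in cluster 5 and 20.2, 15.8 and 15.5 in Zfp541-KO cluster 3 (log2 difference 3.80 ± 0.41, adjusted p = 1.32e-05 against WT 360 h). Its difference from WT 260 h was 0.46 ± 0.36, adjusted p = 0.413. The pore-forming gene Bax was at 14.5, 16.6 and 21.0 CPM, beside 3.81, 3.65 and 4.69 and 145, 94.2 and 88.1, so cluster 4 was below the knockout cells of 260 h. The BH3-only gene Pmaip1 was at 1.04, 3.12 and 4.76 CPM and was lower than in WT 260 h (log2 difference -3.78 ± 0.53, adjusted p = 0.000467). Mitochondrial transcripts took 2.15% of UMIs in cluster 4, 2.06% in cluster 3 and 1.25% in cluster 5. By library, over all kept cells, their share was 2.23% ± 0.263 (SD, n = 3) against 1.33% ± 0.258 (SD, n = 3) in WT 360 h, with an exact two-sided permutation p of 0.10 (adjusted 0.20), the smallest possible.

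Among the partners of ZFP541, Kctd19 was at 260.3, 319 and 279 CPM in cluster 4 and 252, 314 and 248 in cluster 5, and Hdac1 at 298, 213 and 183 and 181, 249.8 and 155; neither was called against WT 360 h. Hdac2 was at 24.5, 32.7 and 41.7 CPM, beside 37.0, 19.7 and 45.6 in cluster 5 and 193, 227 and 194 in Zfp541-KO cluster 3, and was lower than in WT 260 h (log2 difference -1.90 ± 0.36, adjusted p = 0.00289). Its cluster 4 values overlap those of cluster 5. Of 12 histone variant genes, 1 was called higher and 1 lower than in WT 360 h, each lost without any 1 of the Zfp541-KO 360 h libraries. Each call is 8.33% of the list, beside 8.93% higher and 13.5% lower of all genes. Against WT 260 h 1 was called higher and 3 lower (1 lower without WT 260 h library 3). H1f0, a linker histone, was at 12.2, 14.4 and 17.1 CPM beside 60.1 to 91.1 in Zfp541-KO cluster 3 (log2 difference -1.83 ± 0.37, adjusted p = 0.00466 against WT 260 h).

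Early genes and a part of the late genes were found in the same cells. A panel of 15 early prophase genes and a panel of 15 late genes were counted in each cell thinned to 40000 gene UMIs. The early panel was Prdm9, Zcwpw1, Dmc1, Hormad1, Meiob, Mei4, Rec8, Stra8, Spo11, Msh5, Hfm1, Mcmdc2, Tex12, Ugt8a and Smc1b. The late panel was Ccna1, Pgk2, Ovol2, Tbpl1, Acrbp, Tdrd6, Piwil1, Tekt3, Pou5f2, Acrv1, Ldhc, Hspa2, Ccdc40, Hk1 and Tcp11. Cluster 4 cells held 8 to 14 early genes (median 11) and 5 to 12 late genes (median 9). At least 8 of each were present in 201 of 222 cells (90.5%; 85.7%, 93.9% and 92.2% by library), against 64 of 214 cells (29.9%) in cluster 3 and 113 of 268 (42.2%) in cluster 5. Cluster 2, of WT 260 h early pachytene cells and 7 Zfp541-KO 360 h cells, reached 84.1% (72% in WT 260 h library 1 and 92.9% in its library 2), which overlaps the cluster 4 range. By library the share was 23.7%, 16% and 12.5% in the Zfp541-KO cells of cluster 3, 51.4% in its WT library 3 cells, and 55.4%, 24.2% and 47.3% in cluster 5. Unthinned, the shares were 100% in cluster 4, 65.0% in cluster 3 and 95.9% in cluster 5, at the cells' own depths.

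By level, the early panel had a median of 4325 CPM per thinned cluster 4 cell (range 2700 to 6525) and the late panel 5925 CPM (2950 to 8225). In cluster 3 the medians were 3112.5 and 2825 CPM, in cluster 5 1125 and 7975 CPM, and in cluster 2 3137.5 and 5200 CPM. The early panel by library was 3600, 4612.5 and 4450 CPM in cluster 4, lowest in library 1, and the late panel 6275, 5637.5 and 5825 CPM. By library the other clusters overlap these values: the early panel reached 4375 CPM in cluster 2 (WT 260 h library 1) and 4100 CPM in cluster 3 (Zfp541-KO 260 h library 2), and the late panel was 5625 CPM in cluster 2 (WT 260 h library 2) and 6200 CPM in cluster 5 (WT 360 h library 3). Late panel UMIs were mostly those of Ldhc, Hspa2 and Piwil1, at medians of 129, 47 and 28 per thinned cluster 4 cell. With Tbpl1, these genes were detected in 97.7% to 100% of cluster 3 cells. Tcp11, Ccdc40, Pgk2, Acrbp and Tdrd6 were detected in 51.8% to 100% of cluster 4 and 15.0% to 76.6% of cluster 3 cells. Tekt3, Acrv1, Ovol2, Pou5f2, Hk1 and Ccna1 were detected in 1.35% to 16.2% of cluster 4 cells. Of the early panel, Hormad1, Smc1b, Spo11, Tex12, Hfm1 and Meiob were detected in 70.1% to 100% of cluster 5 cells and the others in 1.87% to 48.5%. A count of early genes thus includes genes detected in most late cells, and the panel holds the proposed markers Prdm9 and Zcwpw1. The median of Hspa2 was 51 UMIs in cluster 3 and 38 in cluster 5.

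**Figure D4:**
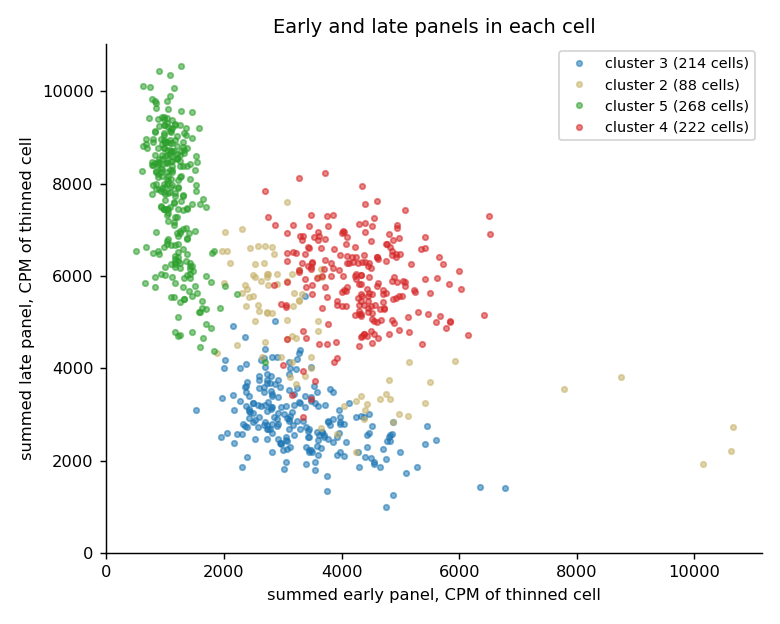
Summed CPM of the early panel (x axis) and the late panel (y axis), 1 dot per cell thinned to 40000 gene UMIs, for clusters 2, 3, 4 and 5. Cluster 4 (medians 4325 and 5925 CPM) lies to the right of cluster 5 (1125 and 7975 CPM) and above cluster 3 (3112.5 and 2825 CPM).

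Pairs of genes also show early and late genes in the same cell, with pairs picked after their values were seen. Prdm9 and Crisp2 were both detected in 83.8% of thinned cluster 4 cells (83.1%, 89.4% and 81.8% by library), 10.7% of cluster 3, 10.1% of cluster 5 and 14.8% of cluster 2 cells. Prdm9 and the sperm gene Tcp11 were both detected in 83.8%, 4.67%, 10.1% and 11.4%. These shares follow that of Prdm9 alone, which is 83.8% in cluster 4. Prdm9 with Pgk2 was found in 43.2% of cluster 4 cells and in 0.935%, 9.70% and 4.55% of the others, and Prdm9 with Ccna1 in 11.7% and in 1.40%, 8.58% and 1.14%. Zcwpw1 with Ldhc, found in 100% of cluster 4 cells, was also found in 86.0%, 48.5% and 90.9% of the others.

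Late transcripts were also read in pre-meiotic cells of the same libraries. In the pre-meiotic cells of Zfp541-KO 360 h libraries 2 and 3, Crisp2 was at 356 and 435 CPM, against 9.79 to 27.6 CPM in pre-meiotic cells of Zfp541-KO 260 h libraries, 49.7, 136 and 53.7 CPM in those of WT 260 h and 908, 927 and 961 CPM in cluster 4. Ldhc was at 1513 and 1385 CPM there, beside 483, 1015 and 517 CPM in pre-meiotic cells of WT 260 h, and the cluster 4 marker Prdm9 at 36.0 and 55.9 CPM. The late panel had medians of 3025 and 3325 CPM in those pre-meiotic cells, against 5925 CPM in cluster 4 and 2950 CPM in the pre-meiotic cells of WT 260 h library 2. Their early panel medians were 3625 and 3462.5 CPM, beside 1100 to 2087.5 CPM in the pre-meiotic cells of the other libraries. At least 8 genes of both panels were present in 9 of the 10 pre-meiotic cells of library 3 (90%). The part of RNA shared between the wells of a library in the cluster 4 levels was not tested.

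Cluster 4 was about as even as cluster 5. Over 2247 genes, the squared coefficient of variation between thinned cells beyond counting noise had a median of 0.057, 0.047 and 0.050 in the cluster 4 libraries, 0.037, 0.044 and 0.063 in the cluster 5 libraries, 0.151, 0.240 and 0.137 in Zfp541-KO cluster 3 and 0.076 in WT cluster 3. The cluster 4 and cluster 5 ranges overlap, and both lie below all cluster 3 values. For the markers, in cluster 4 alone, this excess was 0.018 for Acot13, 0.038 for Zcwpw1, 0.059 for Six5, 0.081 for Tcf12, 0.10 for Atp2b1 and 0.14 for Prdm9. The gene with the largest excess in cluster 4 was Nf1, a Ras GTPase-activating protein, at 4.06. Its highest single cell held 15.6%, 23.3% and 20.1% of the gene's thinned UMIs in the 3 libraries. After it came Scgb2b23-ps, Capza2, Rad51c, Wdr89, Rabac1, Ndufaf8, Rbbp4, Ap2s1 and Akap8l.

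The genes furthest above both neighbours are given as a description, since they helped to define the cluster. Beside Acot13 they were Clca3b, Phf24, Dhrs3, Pparg, Cyp19a1, Calhm6, Bves, Slc16a6 and Arsg. Dhrs3, a retinaldehyde reductase, was at 153, 98.5 and 130.4 CPM in cluster 4, 0.960 to 2.34 in cluster 5 and 1.37 to 7.98 in Zfp541-KO cluster 3. Cyp19a1, the aromatase that makes oestrogen, was at 19.6, 26 and 42.2 CPM, 1.63 to 3.88 and 0.391 to 3.01, and the nuclear receptor Pparg at 36.8, 24.4 and 20.0, 0.443 to 2.18 and 0.140 to 0.430. Clca3b was at 43.6, 52.7 and 46.7 CPM in cluster 4 and 0.275 to 0.406 in cluster 5. All 10 were high in each of the 3 libraries. The neighbours Slc16a6, at 40.7, 19.9 and 33.5 CPM, and Arsg, at 31.9, 12 and 27.7 CPM, share 96 exon bases, so reads of the pair may not be separable.

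Furthest below both were Scand1, Spaca1, Igbp1b, Tmem59l, Susd5, Tpgs1, Hba-a2, Fam217a, Ttbk1 and Pkd2l1. Igbp1b was at 1.04, 1.20 and 1.80 CPM in cluster 4, 55.9, 65.8 and 53.2 in cluster 5 and 18.9, 17.2 and 14.2 in Zfp541-KO cluster 3. Ttbk1, a tubulin kinase, was at 1.39, 1.92 and 1.90, 59.3, 52.6 and 58.5 and 7.84, 8.99 and 7.73 CPM. Spaca1, of the acrosomal membrane, was at 0.231, 1.80 and 0.845 CPM in cluster 4 and 1.09, 1.03 and 42.3 in cluster 5, so its cluster 5 mean rests on WT 360 h library 3, as do those of Scand1 and Fam217a. Hba-a2 is a blood globin, read at 82.4, 27.7 and 0 CPM in cluster 5.

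Markers of other testis cells were low or unequal. The summed level of 10 Sertoli markers was 85.6 to 308 CPM in cluster 4, 364 to 550.0 in cluster 3 and 52.1 to 109 in cluster 5, with 1 of the 9 tested, Ctsl, called higher than in WT 360 h. That call was lost with spike-in scaling and without Zfp541-KO 360 h library 2 or 3, while 3 were called without library 1. The 7 Leydig markers summed to 21.2 to 23.4 CPM in cluster 4, 16.5 to 26.2 in cluster 3 and 7.08 to 13.6 in cluster 5, with 1 member at 0 in cluster 4. Peritubular and endothelial markers (8 genes) summed to 31.0 to 218 CPM in cluster 4, 33.4 to 210 in cluster 3 and 26.6 to 58.5 in cluster 5, and macrophage and blood markers (10 genes) to 4.57 to 207, 7.84 to 248 and 5.24 to 390 CPM. No gene of the Leydig, peritubular and blood lists was called higher or lower against WT 360 h, and the part of such RNA in the results was not tested.

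The 2 WT 260 h cells in cluster 4 held few UMIs of most of its markers. At 71568 and 90953 gene UMIs they held 0 UMIs of Prdm9 and of Six5 and 1 and 2 of Acot13. Tcf12 and Atp2b1 were each read at 0 and 2 UMIs, while Zcwpw1 was read at 11 and 13, Crisp2 at 55 and 82 and Ldhc at 298 and 319 UMIs. The kept cells of Zfp541-KO 360 h outside cluster 4 were 7 cells of cluster 2 and 19 pre-meiotic cells, all in libraries 2 and 3.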

How the data were processed

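Single-cell RNA libraries of mouse germ cells, 12 in all with 3 per group, were analysed from deposited raw UMI counts per gene and cell. The submitters' processing notes name featureCounts 1.6.4, STAR 2.5.3a, UMI-tools 1.0.0 and the mm10 build, without order or settings. Cell filters, classes and the k-means clusters are the authors' deposited annotation, with no settings or doublet treatment stated, and no doublet caller was run on cells picked by hand. Spike-in UMIs were left out of library sizes.

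Counts of all kept cells were summed per library, since cells are not replicates, and fitted with edgeR 4.0.16 (R 4.3.3; filterByExpr, TMM, robust quasi-likelihood F-test, 1 coefficient per group, all 12 libraries), leaving 20279 genes with a common biological coefficient of variation of 0.4855. Calls are two-sided at a Benjamini-Hochberg adjusted p under 0.05. Cluster levels are plain CPM of summed counts of libraries with at least 10 cells of a cluster, as mean or per library. Cells were thinned to 40000 gene UMIs, which lost 0 cells. Library measures were compared by exact permutation, 3 against 3. The edgeR step was run on simulated counts with less spread than these data, which checks the code and not the calls.

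Named genes were the markers, the complex members, up to 4 called genes per list and comparison with the smallest p, the 2 highest uncalled members of each list, the panel genes, and the 10 genes furthest above, furthest below and most uneven. Members and gene lists were chosen with earlier results of these data known. Alternatives were DESeq2 1.42.0, limma-voom (limma 3.58.1), other scalings and filters, fewer libraries or cells, and a replicate block.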

Additional observations from a re-analysis of the deposited data

How the results depend on the processing

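The count of called genes against WT 260 h fell by more than 1.5 times under 7 of 16 alternatives, 5 of them fits with 1 library left out. Against WT 360 h, 4554 genes were called, and 2600 to 4179 with 1 library left out, the lowest without Zfp541-KO 360 h library 3 and 2816 without its library 2. Against WT 260 h, 3176 became 1437 with spike-in scaling, 2105 with library 3 as the only WT 260 h library (chosen after seeing the data) and 1448 to 3313 with 1 library left out. Against Zfp541-KO 260 h, 4759 became 2567 with spike-in scaling and 2764 to 3669 with 1 library left out, the lowest without Zfp541-KO 360 h library 1. Between WT 360 h and WT 260 h, 8082 became 4989 with library 3 alone. The share of cells with 8 genes of both panels was 100% unthinned. The difference in Y-linked share between Zfp541-KO 360 h and WT 360 h, 0.000537 percentage points, became -0.00116 without pre-meiotic cells and -0.00181 to 0.00415 with 1 library left out. Of the genes named by rule, 60 of 100 called against WT 360 h, 45 of 86 against WT 260 h and 62 of 97 against Zfp541-KO 260 h were called under every alternative, and 0 reversed. With DESeq2 5798, 4585 and 6069 genes were called in the comparisons with WT 360 h, WT 260 h and Zfp541-KO 260 h. The replicate block gave 4026, 2787, 4394 and, between the WT groups, 7316 calls; the replicate numbers did not pair libraries (correlations of deviations from -0.20 to 0.17). The causes of these moves were not tested. Depth limits Prdm9 and other genes near 1 UMI per thinned cell, where a cell without a UMI may still express the gene.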
